A study of Mus musculus with 8 samples.

Results

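The 42 genes described here encode the machinery that folds secreted and membrane proteins in the endoplasmic reticulum (ER) and the unfolded protein response, the signalling system that adjusts that machinery to demand. The list goes by the known roles of their products and uses no threshold on the values, though it was drawn up with earlier results of these data known, and all 42 were found among the 19938 genes measured. They were followed in spleen XCR1+ dendritic cells, the subset specialised in presenting antigens of dead cells to CD8+ T cells, sorted from untreated Il12b-EYFP reporter mice, in which cells that switch on Il12b carry a yellow fluorescent protein. All 3 groups were gated as lineage-negative, BST2-negative or low, CD11c high and CD8α+ cells. The immature group was negative for the chemokine receptor CCR7 and for EYFP (3 arrays), the second group was CCR7+ and EYFP-negative (CCR7+Il12b-, 3 arrays), and the last was positive for both (CCR7+Il12b+, 2 arrays). The series asks how far steady-state spleen XCR1+ cells that carry CCR7, with or without the reporter, differ from immature ones. No label says whether replicates came from separate mice, so the p-values measure only the spread between these arrays, which may be technical.

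Proteins that enter the ER are folded by chaperones of the HSP70 and HSP90 families, by lectin chaperones that read their glycans, and by isomerases that form and shuffle disulfide bonds, while misfolded ones are passed to ER-associated degradation. When unfolded protein accumulates, 3 sensors signal to the nucleus. IRE1 (gene Ern1) splices the Xbp1 mRNA so that it encodes an active transcription factor, ATF6 is cut free from its membrane anchor to act as one, and PERK slows translation while favouring synthesis of ATF4. XCR1+ dendritic cells are known to keep the IRE1 and XBP1 branch active and to depend on it.

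The ER stress response element, CCAAT and CCACG held 9 bases apart (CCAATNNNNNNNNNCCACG), is the classical promoter sequence through which ATF6 and XBP1 act together with NF-Y. RefSeq promoter windows of build GRCm38.p6, covering 250 bases before and 50 bases from the annotated start, were available for 37 of the 42 genes. On either strand, 10 of the 37 genes (27%) held the element, against 37 of the 27025 genes with a window (0.137%). Some of these genes are textbook examples from which the element was defined, so this share describes the list and is not independent evidence about it. The holders were Hspa5, Hsp90b1 (with 2 copies), Dnajc3, Creld2, Calr, Canx, Pdia6, Ero1b, Syvn1 and Derl3. In CCR7+Il12b+ against immature cells, 8 of the 21 genes with a window that were lower held it, as did 0 of the 7 that were higher and 2 of the 9 that did not pass the test. The windows below show the element in 5 folding genes and in Syvn1, all lower in CCR7+Il12b+ cells, and in Derl3, which did not pass the test. They are written 5′ to 3′ along the gene's strand with the fixed bases of the element in capitals. In Creld2 and Derl3 the element lies on the opposite strand and reads as its reverse complement.
Hspa5: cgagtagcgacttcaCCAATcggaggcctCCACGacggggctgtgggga
Hsp90b1: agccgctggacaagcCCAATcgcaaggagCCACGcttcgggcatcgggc
Dnajc3: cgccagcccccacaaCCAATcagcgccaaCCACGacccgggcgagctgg
Creld2: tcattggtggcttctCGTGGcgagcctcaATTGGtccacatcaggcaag
Pdia6: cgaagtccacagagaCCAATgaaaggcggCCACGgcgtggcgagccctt
Syvn1: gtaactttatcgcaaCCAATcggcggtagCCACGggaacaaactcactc
Derl3: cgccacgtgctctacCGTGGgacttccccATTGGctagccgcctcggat

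These stretches lie at chr2:34772010-34772058 (plus strand, Hspa5), chr10:86705623-86705671 (minus strand, Hsp90b1), chr14:118937812-118937860 (plus, Dnajc3), chr15:88819505-88819553 (plus, Creld2), chr12:17266476-17266524 (plus, Pdia6), chr19:6046517-6046565 (plus, Syvn1) and chr10:75893227-75893275 (plus, Derl3). The element ended 26 bases before the annotated start in Syvn1, 47 in Hspa5, 80 in Pdia6, 87 in Dnajc3, 108 in Creld2, 138 in Derl3 and 194 in the Hsp90b1 copy shown. A shorter form of the element, ATTGG followed after 1 base by CCACG, was present in Dnajb11 and Herpud1, that is in 5.41% of the 37 genes against 0.0444% of all genes. The core TGACGTGG, bound by XBP1, was found in 0 of the 37 and in 0.714% of all genes. The ATF4 composite site TTGCATCA occurred in Chac1 and Herpud1, 5.41% of the 37 against 1.03% of all genes. It is shown for Chac1, a textbook ATF4 target that was lower in both CCR7+ groups, at chr2:119351034-119351071 on the plus strand, where it ends 186 bases before the start.
Chac1: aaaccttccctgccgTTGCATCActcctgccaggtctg

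Values are log2 expression levels, so a difference of 1 is a 2-fold change, and a gene was called higher or lower when the adjusted p of the limma fit was under 0.05. Array medians lay between 5.25 and 5.46. A background mark of 4.98 was taken from 1194 olfactory and vomeronasal receptor genes, which dendritic cells are not known to use, and 41 of the 42 genes had every group mean at or above it, the exception being Creb3l2. The sort genes followed the labels in part. Ccr7 stood at 8.50 to 8.86 in immature cells, 12.20 to 12.24 in CCR7+Il12b- cells and 12.46 to 12.77 in CCR7+Il12b+ cells. Il12b stood at 6.88 to 7.11 in immature and 12.22 to 12.35 in CCR7+Il12b+ cells, but its mRNA was already at 10.77 to 10.84 in the reporter-negative CCR7+Il12b- cells. CCR7+Il12b- array 3 was the lowest of its group for 26 of the 42 genes (61.9%), against 34.8% of all genes.

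Many of the ER folding genes were lower in CCR7+ cells than in immature cells, whereas Sel1l and Dnajc10 were higher in both CCR7+ groups and Ddit3 was called higher in CCR7+Il12b+ cells. In CCR7+Il12b- against immature cells, 21 of the 42 genes were lower and 2 higher, where 14.5% of all genes tested were lower and 9.10% higher. The median change of the 42 was -0.45, against 0.06 over all genes. In CCR7+Il12b+ against immature cells, 25 were lower and 7 higher, where 17.9% of all genes were lower and 14.1% higher, and the median change was -0.77 against 0.09. In the direct comparison of CCR7+Il12b+ with CCR7+Il12b- cells, 8 were lower and 1 higher, where 4.47% of all genes were lower and 2.61% higher, and the median change was -0.31 against 0.02. Called changes of at least 1 downwards numbered 2, 17 and 2 in these comparisons, and upwards 1, 2 and 0. Over all 19938 genes such changes numbered 641, 1636 and 304 downwards and 576, 899 and 93 upwards. Calls were more frequent among the 12934 genes with a group mean above the background mark, fitted alone. Of these, 23.1% were lower and 13.5% higher in the first comparison, 27.7% and 19.8% in the second, and 7.4% and 4.36% in the third. In that fit 21, 26 and 8 of the 42 were lower and 3, 7 and 1 higher. The first and second comparisons share the immature arrays and are therefore not independent of each other. The split of the first comparison moved with the scaling, from 2 higher and 21 lower to 6 higher and 18 lower after quantile normalization and to 6 higher and 19 lower after cyclic loess.

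**Figure D1:**
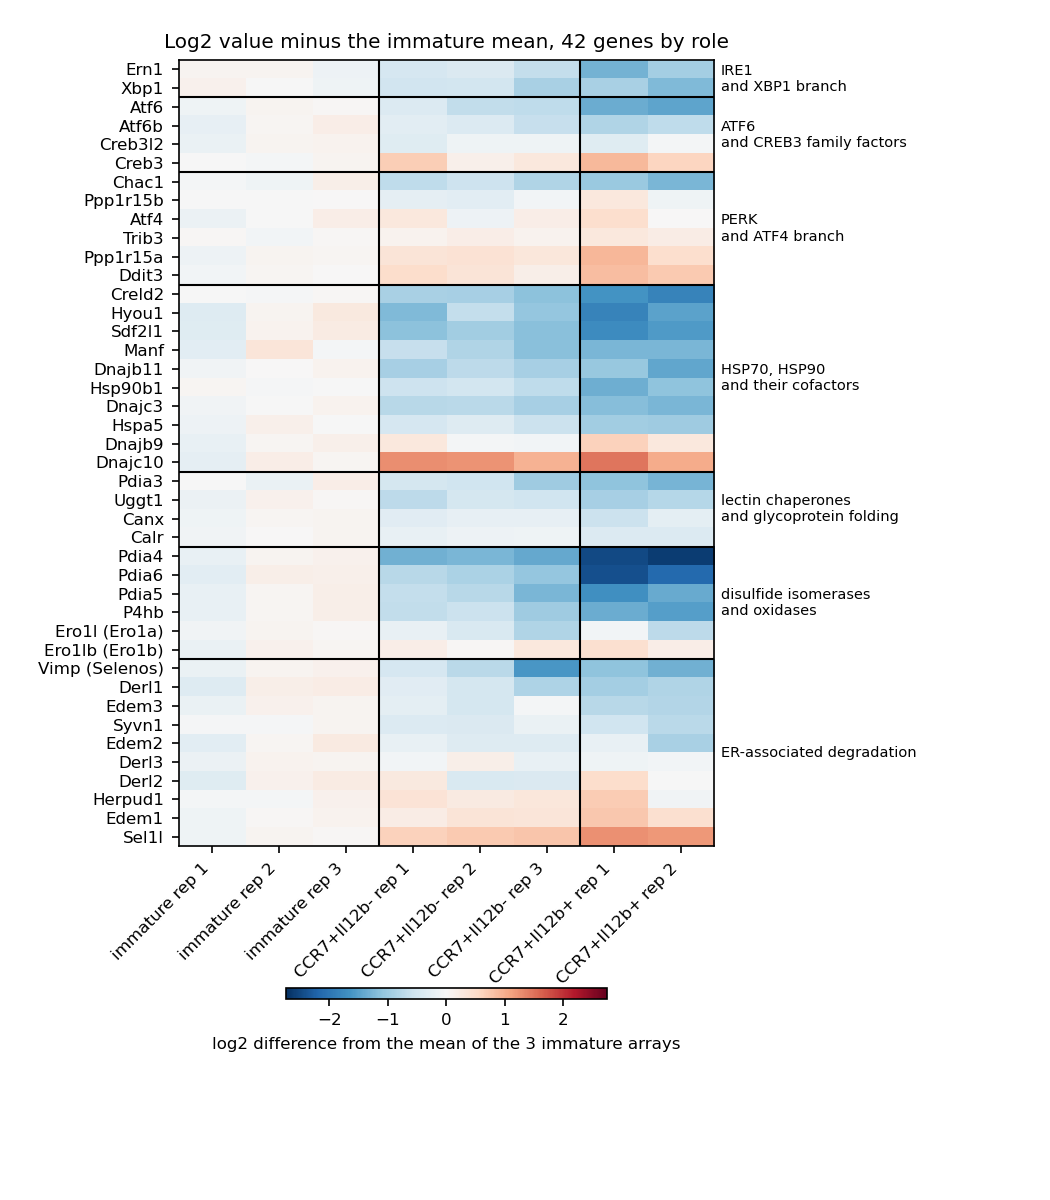
Each cell is 1 gene (rows, grouped by role) on 1 array (columns), coloured by its log2 value minus the mean of the 3 immature arrays. Blue covers most chaperones and disulfide isomerases in both CCR7+ groups, deepest for Pdia4 and Pdia6 in CCR7+Il12b+ cells, and red marks Dnajc10 and Sel1l.

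Array by array, the median of the 42 genes relative to the immature mean was -0.14, 0.06 and 0.08 in the immature arrays. It was -0.32, -0.40 and -0.57 in the CCR7+Il12b- arrays and -0.79 and -0.79 in the CCR7+Il12b+ arrays. The 3 groups therefore did not overlap in this median, while the median over all genes stayed between -0.02 and 0.13 in every array. Because these are bulk samples, fewer cells expressing a gene and less RNA per cell cannot be told apart.

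Both genes of the IRE1 and XBP1 branch were lower in the CCR7+ groups. The share of all genes called lower was 14.5% for CCR7+Il12b- cells, while for the CCR7+Il12b+ group it was 17.9%. Among genes above the background mark, fitted alone, these shares were 23.1% and 27.7%. Ern1, which encodes the sensor, measured 7.84, 7.84 and 7.63 in immature cells, 7.31, 7.38 and 7.12 in CCR7+Il12b- cells, and 6.47 and 6.83 in CCR7+Il12b+ cells. No group overlapped another. It fell by 0.50 ± 0.13 (SE) in CCR7+Il12b- cells (adjusted p = 0.0153) and by 1.12 ± 0.14, or 2.17-fold, in CCR7+Il12b+ cells (adjusted p = 0.000107). The direct difference between the CCR7+ groups was -0.62 ± 0.14 (adjusted p = 0.0256). Ern1's call in the first comparison was lost after quantile normalization and without immature array 2 or CCR7+Il12b- array 3 (adjusted p up to 0.0688 over the alternatives). Its call in the direct comparison was lost with only the 2 groups fitted and without CCR7+Il12b- array 1 or 2 or CCR7+Il12b+ array 1 (up to 0.174).

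Xbp1, the transcription factor whose mRNA IRE1 splices, measured 8.64, 8.50 and 8.41 in immature cells, 7.99, 8.01 and 7.63 in CCR7+Il12b- cells, and 7.63 and 7.30 in CCR7+Il12b+ cells. Every CCR7+ array lay below every immature array, while the CCR7+ groups overlapped. It fell by 0.64 ± 0.14 in CCR7+Il12b- cells (adjusted p = 0.00584) and by 1.05 ± 0.15, or 2.08-fold, in CCR7+Il12b+ cells (adjusted p = 0.000293). The difference between the CCR7+ groups, -0.41 ± 0.15, did not pass the test (adjusted p = 0.171). The values are for the gene as a whole and do not separate spliced from unspliced Xbp1 mRNA, so they carry no measure of IRE1 activity.

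**Figure D2:**
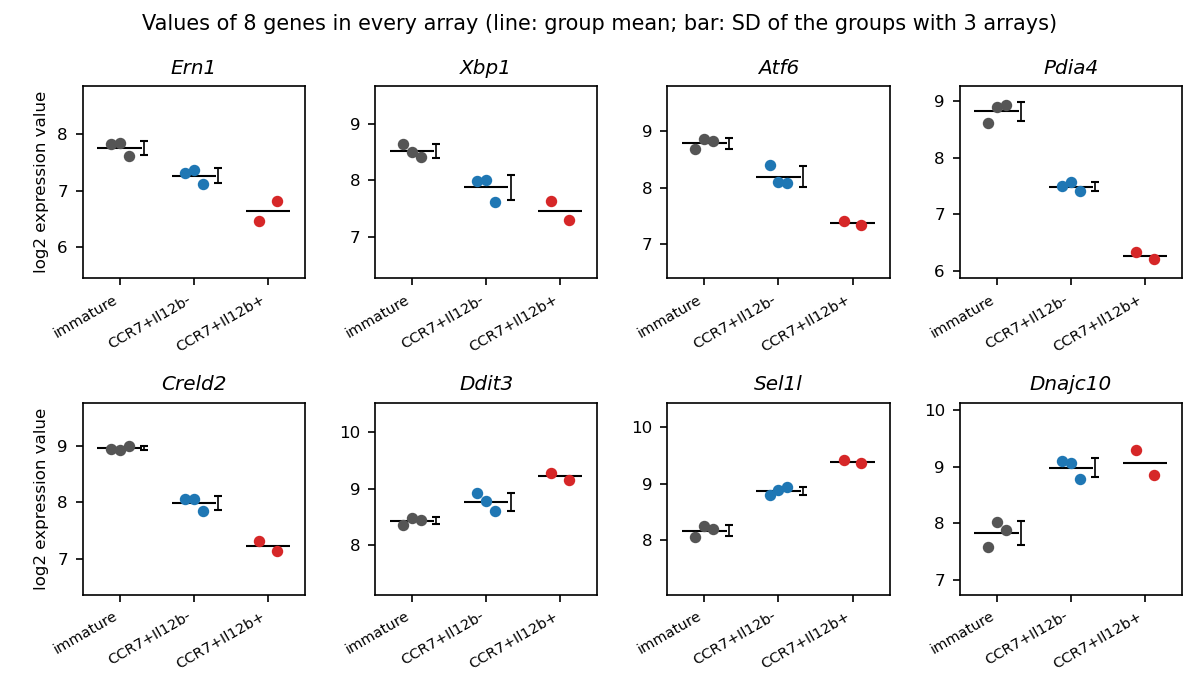
Log2 expression of 8 genes in every array of the 3 groups. The vertical axes are centred on each gene and all have the same span. A line marks the group mean and a bar the SD of the groups with 3 arrays. Ern1, Atf6, Pdia4 and Creld2 step down from immature to CCR7+Il12b- to CCR7+Il12b+ cells without overlap, Sel1l and Ddit3 step up, and Dnajc10 is at a like level in both CCR7+ groups.

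The ATF6 and CREB3 family factors, membrane-anchored transcription factors released by proteolysis in the Golgi, did not move as 1 group. Of 4 genes, 2 were lower and 0 higher in CCR7+Il12b- cells, beside 14.5% and 9.10% of all genes. In CCR7+Il12b+ cells 2 were lower and 1 higher, beside 17.9% and 14.1%. Atf6 measured 8.68, 8.87 and 8.82 in immature cells, 8.41, 8.11 and 8.08 in CCR7+Il12b- cells, and 7.42 and 7.34 in CCR7+Il12b+ cells, with no overlap between groups. It fell by 0.59 ± 0.12 (adjusted p = 0.0039) and by 1.41 ± 0.13, or 2.66-fold (adjusted p = 1.05e-05), and differed between the CCR7+ groups by -0.82 ± 0.13 (adjusted p = 0.00379).

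Atf6b, its paralog, measured 7.86, 8.13 and 8.27, then 7.80, 7.72 and 7.46, then 7.25 and 7.39 in the same order of groups. The groups did not overlap, though the lowest immature and highest CCR7+Il12b- arrays were close. It fell by 0.43 ± 0.14 in CCR7+Il12b- cells (adjusted p = 0.0403), a call that 8 of 19 alternatives ended (up to 0.171), among them quantile normalization, cyclic loess and leaving out immature array 2 or 3 or CCR7+Il12b- array 2 or 3. In CCR7+Il12b+ cells it fell by 0.77 ± 0.15 (adjusted p = 0.00228). Creb3 went the other way, with 8.13, 8.10 and 8.21 in immature, 8.82, 8.28 and 8.43 in CCR7+Il12b- and 9.04 and 8.73 in CCR7+Il12b+ cells. Both CCR7+ groups lay above the immature arrays and overlapped each other. Creb3 rose by 0.74 ± 0.16 in CCR7+Il12b+ cells (adjusted p = 0.00461), and its difference of 0.36 ± 0.15 in CCR7+Il12b- cells did not pass the test (adjusted p = 0.104). Creb3l2 stayed near the background mark, at 4.88, 5.14 and 5.17, then 4.73, 4.95 and 4.94, then 4.72 and 5.01, and was called in no comparison.

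In the PERK and ATF4 branch, CCR7+Il12b+ cells had 2 of 6 genes higher and 1 lower, beside 14.1% and 17.9% of all genes. CCR7+Il12b- cells had 0 higher and 1 lower, beside 9.10% and 14.5%. The lower share of the branch, 16.7% in each comparison, was near that of all genes. Atf4, the branch's transcription factor, measured 9.40, 9.56 and 9.75 in immature, 9.86, 9.43 and 9.74 in CCR7+Il12b- and 10.03 and 9.59 in CCR7+Il12b+ cells. Its groups overlapped throughout and it was called in no comparison. Since ATF4 is controlled mainly at translation, its mRNA level does not measure its protein.

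Ddit3, which encodes CHOP, a transcription factor of prolonged ER stress, measured 8.37, 8.49 and 8.45 in immature, 8.92, 8.78 and 8.60 in CCR7+Il12b- and 9.29 and 9.16 in CCR7+Il12b+ cells. The 3 groups did not overlap. It rose by 0.79 ± 0.13, or 1.73-fold, in CCR7+Il12b+ cells (adjusted p = 0.000494), and the difference of 0.34 ± 0.11 in CCR7+Il12b- cells lay at the threshold (adjusted p = 0.0506, under it in 10 of 19 alternatives). Ppp1r15a, which encodes GADD34 and brings a phosphatase to eIF2α to restore translation, rose by 0.69 ± 0.14 in CCR7+Il12b+ cells (adjusted p = 0.00319). Chac1, an enzyme that breaks down glutathione, measured 7.44, 7.37 and 7.65, then 6.79, 6.92 and 6.66, then 6.47 and 6.24, with no overlap. It fell by 0.70 ± 0.12 (adjusted p = 0.0018) and by 1.13 ± 0.14, or 2.19-fold (adjusted p = 6.93e-05). Trib3, a pseudokinase that CHOP and ATF4 switch on, and Ppp1r15b, the constitutive relative of GADD34, were called in no comparison. The probe set used for Ppp1r15b showed -0.20 and 0.08 in the first and second comparisons. A second probe set of Ppp1r15b, with a mean of 6.53, showed 0.12 and 0.47.

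The chaperones of the HSP70 and HSP90 families and their cofactors were mostly lower, with 8 of 10 genes lower in each CCR7+ group against immature cells. Over all genes, 14.5% and 17.9% were lower in these comparisons. The median changes of the 10 were -0.83 and -1.22. Creld2, a secreted protein of the ER stress response, measured 8.95, 8.93 and 9.00 in immature, 8.06, 8.05 and 7.84 in CCR7+Il12b- and 7.31 and 7.13 in CCR7+Il12b+ cells. The 3 groups were widely apart. It fell by 0.97 ± 0.11 (adjusted p = 9.31e-05) and by 1.74 ± 0.12, or 3.34-fold (adjusted p = 1.23e-06), and by 0.76 ± 0.12 between the CCR7+ groups (adjusted p = 0.00346). Hyou1, an HSP70-like exchange factor, measured 7.78, 8.21 and 8.39, then 6.91, 7.47 and 7.06, then 6.28 and 6.65. No group overlapped another, and Hyou1 fell by 0.98 ± 0.19 (adjusted p = 0.00301) and fell by 1.66 ± 0.21, or 3.16-fold (adjusted p = 9.79e-05).

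Sdf2l1, a partner of the J-domain protein Dnajb11, measured 8.88, 9.30 and 9.43 in immature, 8.07, 8.24 and 8.06 in CCR7+Il12b- and 7.48 and 7.65 in CCR7+Il12b+ cells. The groups did not overlap, and it fell by 1.08 ± 0.14 (adjusted p = 0.00031) and by 1.64 ± 0.16 (adjusted p = 1.52e-05). Manf, an ER-resident factor that binds BiP, measured 7.83, 8.46 and 8.08, then 7.49, 7.30 and 6.98, then 6.86 and 6.86. It fell by 0.87 ± 0.17 (adjusted p = 0.00356) and by 1.26 ± 0.19 (adjusted p = 0.00037), with no overlap between groups. Dnajb11 itself, which delivers unfolded clients to BiP, measured 9.20, 9.29 and 9.38, then 8.38, 8.57 and 8.38, then 8.25 and 7.87. It fell by 0.85 ± 0.12 (adjusted p = 0.00056) and by 1.23 ± 0.14 (adjusted p = 4.11e-05), again without overlap. Of these 4 genes, Hyou1, Sdf2l1, Manf and Dnajb11, none passed the test between the CCR7+ groups (changes of -0.38 to -0.68).

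Hspa5, which encodes BiP, the HSP70 chaperone of the ER that also holds the 3 sensors inactive, fell by 0.47 in CCR7+Il12b- and by 0.97 in CCR7+Il12b+ cells (adjusted p = 0.0106 and 0.000115). Hsp90b1, the HSP90 of the ER, fell by 0.59 and by 1.22 (adjusted p = 0.00225 and 1.66e-05). Dnajc3, an inhibitor of PERK and a BiP cofactor, fell by 0.81 and by 1.22 (adjusted p = 0.000237 and 1.27e-05). Between the CCR7+ groups, Hspa5 (-0.50, adjusted p = 0.0364) and Hsp90b1 (-0.63, adjusted p = 0.0108) were also called lower. Without CCR7+Il12b+ array 1 the call of Hsp90b1 was lost (0.0836). That of Hspa5 was lost in 9 of 19 alternatives (up to 0.131), which include leaving out any array but immature array 1 and CCR7+Il12b- array 3, and its call in CCR7+Il12b- cells was lost without immature array 2 (0.0615).

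Dnajc10 (ERdj5), a disulfide reductase that unfolds proteins bound for degradation, was the exception. It measured 7.59, 8.01 and 7.88 in immature, 9.10, 9.06 and 8.79 in CCR7+Il12b- and 9.29 and 8.86 in CCR7+Il12b+ cells. Every CCR7+ array lay above every immature array, and the CCR7+ groups overlapped. It rose by 1.16 ± 0.15, or 2.23-fold (adjusted p = 0.000295), and by 1.25 ± 0.17, or 2.37-fold (adjusted p = 0.000184), with a difference of 0.09 ± 0.17 between the CCR7+ groups (adjusted p = 0.874). Dnajb9 (ERdj4), a J-domain repressor of IRE1, was called higher in CCR7+Il12b+ cells at the threshold (0.46, adjusted p = 0.0498), and 10 of 19 alternatives ended that call (up to 0.267), among them leaving out any immature array, CCR7+Il12b- array 2 or CCR7+Il12b+ array 1.

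**Figure D3:**
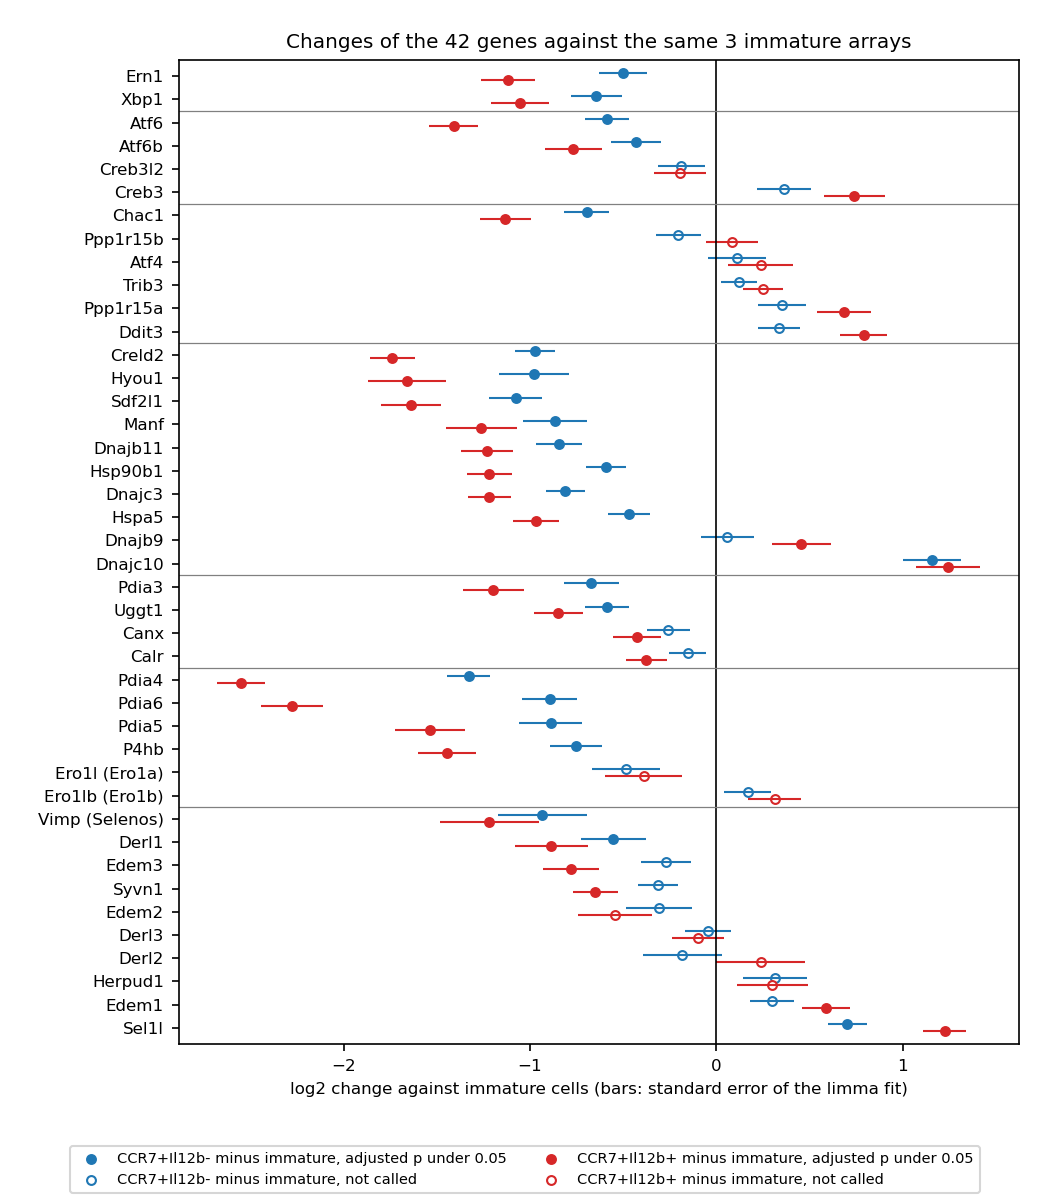
Log2 change against the 3 immature arrays (horizontal axis) with its standard error for each of the 42 genes, in CCR7+Il12b- cells (blue) and CCR7+Il12b+ cells (red); filled points had an adjusted p under 0.05. Pdia4 reaches -2.55 and Pdia6 -2.28 in CCR7+Il12b+ cells, and Sel1l and Dnajc10 lie on the positive side in both groups.

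Lectin chaperones and glycoprotein folding enzymes were all lower in CCR7+Il12b+ cells, 4 of 4, beside 17.9% of all genes. In CCR7+Il12b- cells 2 of 4 were lower, beside 14.5%. Pdia3, the isomerase that works with the lectin chaperones and takes part in loading MHC class I, measured 10.66, 10.48 and 10.85 in immature, 10.17, 10.11 and 9.69 in CCR7+Il12b- and 9.55 and 9.37 in CCR7+Il12b+ cells. No group overlapped another. It fell by 0.67 ± 0.15 (adjusted p = 0.00667) and by 1.20 ± 0.16, or 2.29-fold (adjusted p = 0.000184). Uggt1, the sensor that returns misfolded glycoproteins for another folding cycle, fell by 0.59 and by 0.85 (adjusted p = 0.0036 and 0.000397). The lectin chaperones themselves differed less: calreticulin (Calr) fell by 0.37 and calnexin (Canx) by 0.43 in CCR7+Il12b+ cells (adjusted p = 0.022 and 0.0275). Cyclic loess and leaving out immature array 2 or 3 or CCR7+Il12b+ array 1 ended both of these calls, and leaving out CCR7+Il12b+ array 2 ended that of Calr (up to 0.128 for Calr and 0.178 for Canx over the alternatives).

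Disulfide isomerases and oxidases had 4 of 6 genes lower and 0 higher in each CCR7+ group. The shares of all genes were 14.5% lower and 9.10% higher in CCR7+Il12b- cells and 17.9% and 14.1% in CCR7+Il12b+ cells. This group had the lowest median of the 7 role groups in CCR7+Il12b+ cells, -1.49. Pdia4 (ERp72) measured 8.62, 8.90 and 8.93 in immature, 7.49, 7.56 and 7.41 in CCR7+Il12b- and 6.32 and 6.20 in CCR7+Il12b+ cells. The groups were separated by more than 1 log2 unit at their nearest arrays. It fell by 1.33 ± 0.11, or 2.51-fold (adjusted p = 1.46e-05), and by 2.55 ± 0.13, or 5.87-fold (adjusted p = 1.38e-07), and by 1.22 ± 0.13 between the CCR7+ groups (adjusted p = 0.000405). A second probe set of Pdia4, with a mean of 4.84 and so below the background mark, showed 0.26 and -0.11 in the first and second comparisons.

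Pdia6 (P5), an isomerase that also binds IRE1, measured 9.44, 9.90 and 9.88 in immature, 8.98, 8.87 and 8.68 in CCR7+Il12b- and 7.31 and 7.61 in CCR7+Il12b+ cells. Its lowest CCR7+Il12b- array lay above both CCR7+Il12b+ arrays. It fell by 0.89 ± 0.15 (adjusted p = 0.00128), fell by 2.28 ± 0.17, or 4.85-fold (adjusted p = 1.77e-06), and fell by 1.38 ± 0.17 between the CCR7+ groups (adjusted p = 0.000827). Pdia5 measured 9.40, 9.66 and 9.78, then 8.96, 8.85 and 8.36, then 7.92 and 8.22, without overlap, and fell by 0.89 ± 0.17 (adjusted p = 0.00287) and by 1.54 ± 0.19 (adjusted p = 7.9e-05). P4hb, the founding protein disulfide isomerase, measured 9.19, 9.45 and 9.57, then 8.72, 8.81 and 8.42, then 8.04 and 7.88. It fell by 0.75 ± 0.14 (adjusted p = 0.0023) and by 1.44 ± 0.15, or 2.72-fold (adjusted p = 2.78e-05), and its fall of 0.69 between the CCR7+ groups (adjusted p = 0.0212) was lost in 5 of 19 alternatives, among them leaving out either CCR7+Il12b+ array or CCR7+Il12b- array 1 or 2. The oxidases that recharge the isomerases, Ero1a and Ero1b, were called in no comparison, with changes in CCR7+Il12b+ cells of -0.39 ± 0.21 and 0.31 ± 0.14.

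Of the 10 genes of ER-associated degradation, 2 were lower and 1 higher in CCR7+Il12b- cells, near the 14.5% and 9.10% of all genes. In CCR7+Il12b+ cells 4 were lower and 2 higher, beside 17.9% and 14.1% of all genes. Among genes above the background mark, fitted alone, these shares were 27.7% and 19.8%. Sel1l, the scaffold of the HRD1 ubiquitin ligase, measured 8.06, 8.25 and 8.20 in immature, 8.80, 8.88 and 8.94 in CCR7+Il12b- and 9.42 and 9.36 in CCR7+Il12b+ cells. The groups rose without overlap, by 0.70 ± 0.10 (adjusted p = 0.000531) and by 1.22 ± 0.11, or 2.34-fold (adjusted p = 1.03e-05). Between the CCR7+ groups the rise was 0.52 ± 0.11 (adjusted p = 0.0195), a call lost when either CCR7+Il12b+ array or CCR7+Il12b- array 1 or 2 was left out (up to 0.0979). Syvn1, which encodes the HRD1 ligase that Sel1l holds, fell by 0.65 in CCR7+Il12b+ cells (adjusted p = 0.00151), so scaffold and ligase changed in opposite directions.

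Selenos, also named Vimp, links the ER membrane to the VCP extraction motor. It measured 9.09, 9.35 and 9.39 in immature, 8.81, 8.54 and 7.67 in CCR7+Il12b- and 8.16 and 7.95 in CCR7+Il12b+ cells. CCR7+Il12b- array 3 lay below both CCR7+Il12b+ arrays. It fell by 0.93 ± 0.24 (adjusted p = 0.0148) and by 1.22 ± 0.27 (adjusted p = 0.00429); the first call was lost without immature array 2 or 3 (up to 0.0579) and the second without CCR7+Il12b+ array 2 (0.0501). Derl1, a channel-forming derlin, fell by 0.55 and by 0.89 (adjusted p = 0.04 and 0.00442), and 10 of 19 alternatives ended the first of these calls (up to 0.158), among them leaving out any array but immature array 1 and CCR7+Il12b- array 1. Among the lectin-like EDEM proteins, which mark glycoproteins for disposal, Edem1 rose by 0.59 and Edem3 fell by 0.78 in CCR7+Il12b+ cells (adjusted p = 0.0046 and 0.00187). Edem2, Derl2, Derl3 and Herpud1, a membrane organiser of the ligase, were called in no comparison.

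Other genes of the pathway were read from lists of measured genes outside the 42. Beside their counts, 14.5% of all genes were lower and 9.10% higher in CCR7+Il12b- cells, and 17.9% and 14.1% in CCR7+Il12b+ cells. Among genes above the background mark, fitted alone, these shares were 23.1% and 13.5%, then 27.7% and 19.8%. Folding enzymes and glycan trimming had 13 of 31 genes lower and 0 higher in CCR7+Il12b- cells and 16 lower and 4 higher in CCR7+Il12b+ cells, with medians of -0.39 and -0.68. Lman1, a cargo receptor that carries glycoproteins out of the ER, fell by 1.25 and fell by 2.16, and Lman2, a related lectin, by 1.01 and by 1.51. Prdx4, a peroxiredoxin that feeds disulfide formation, fell by 1.54 and by 1.88, and Fkbp2, an ER prolyl isomerase, by 1.05 and by 1.73. Dnajc1 differed, with -0.17 in CCR7+Il12b- cells and a rise of 0.63 in CCR7+Il12b+ cells, which lay 0.79 above CCR7+Il12b- cells.

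Stress sensors, kinases and factors were split. In CCR7+Il12b- cells 5 of 20 were higher and 4 lower, beside 9.10% and 14.5% of all genes. In CCR7+Il12b+ cells 6 were higher and 6 lower, beside 14.1% and 17.9%. Nfe2l1, an ER-anchored factor that drives proteasome genes, rose by 1.13 and by 1.77, and Traf2, the adaptor that links IRE1 to JNK, by 1.11 and by 1.62. The eIF2α kinases Eif2ak1 and Eif2ak2 fell by 0.71 and 0.65 in CCR7+Il12b- and by 1.27 and 1.14 in CCR7+Il12b+ cells. Eif2ak3, the PERK gene, picked out here after its values were seen, fell by 0.34 and by 0.71 (adjusted p = 0.046 and 0.00098). Of 12 further ATF4 target genes, 3 were higher and 1 lower in CCR7+Il12b- cells (25% and 8.33%). In CCR7+Il12b+ cells 4 were higher and 1 lower (33.3% and 8.33%). Slc3a2, the heavy chain of amino acid transporters, rose by 0.48 and by 0.83, whereas Psat1, of serine synthesis, fell by 0.95 and by 1.20.

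ER-associated degradation and extraction beyond the 10 genes above had 5 of 26 higher and 2 lower in CCR7+Il12b- cells, beside 9.10% and 14.5% of all genes. In CCR7+Il12b+ cells 6 were higher and 6 lower, 23.1% each, beside 14.1% and 17.9%. Among genes above the background mark, fitted alone, the shares in CCR7+Il12b+ cells were 19.8% higher and 27.7% lower, near those of this list. Vcp, the motor that pulls proteins from the ER membrane, and its cofactor Nploc4 rose by 0.91 and 1.27 in CCR7+Il12b+ cells, and Aup1, a ligase recruiter, by 1.16. Ube2g2, the ubiquitin-conjugating enzyme that Aup1 recruits, fell by 1.05. Of 10 mRNAs reported elsewhere as cut by IRE1, 2 were higher and 2 lower in CCR7+Il12b- cells (20% each). In CCR7+Il12b+ cells 2 were higher and 3 lower (20% and 30%). Itgb2, a leukocyte integrin chain, fell by 1.29 and by 3.23, whereas Lamp1, of the lysosome membrane, rose by 1.62 and by 2.15, and Tapbp, the peptide-loading chaperone tapasin, by 0.47 and by 0.91. ER calcium stores had 1 of 10 genes higher and 2 lower in CCR7+Il12b- cells and 3 higher and 4 lower in CCR7+Il12b+ cells, and the shares in CCR7+Il12b- cells are near the 9.10% and 14.5% of all genes. Rcn2, a calcium-binding reticulocalbin, fell by 0.84 and fell by 1.15, and the calcium pump Atp2a2 fell by 0.67 and fell by 0.83. Itpr3, a calcium release channel, rose by 0.60 and by 0.72, and Sdf4 rose by 0.73 in CCR7+Il12b+ cells.

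**Figure D4:**
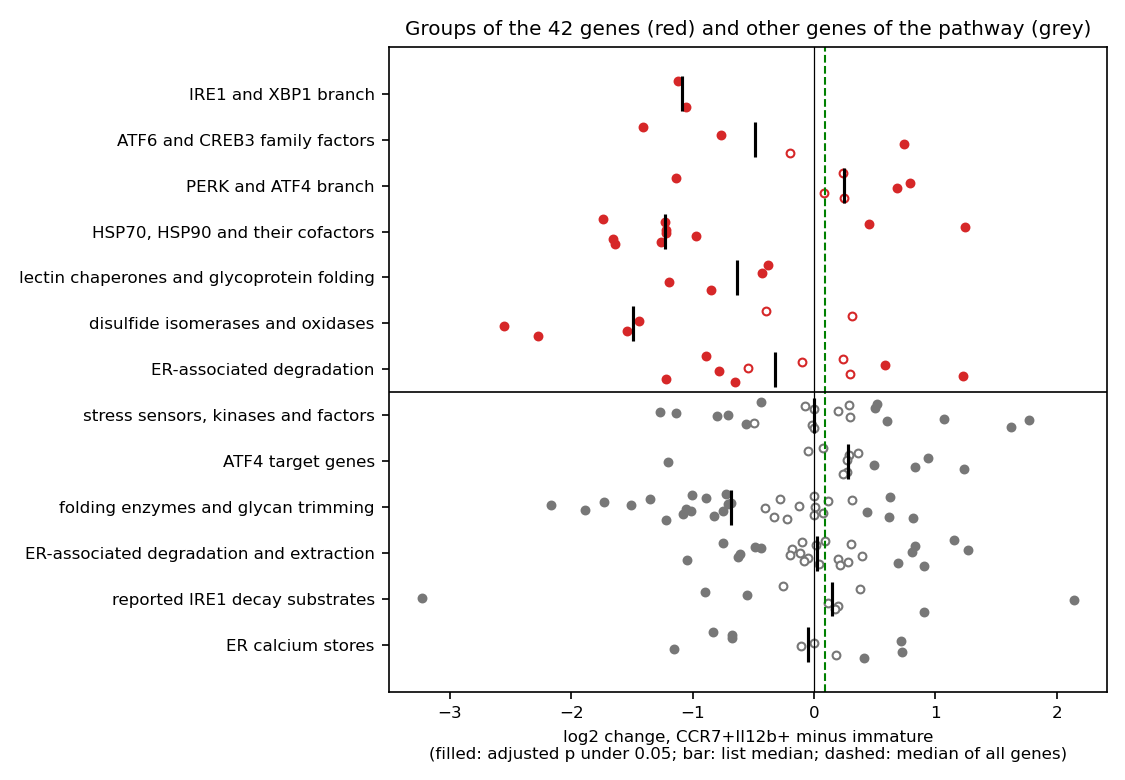
Log2 change in CCR7+Il12b+ against immature cells (horizontal axis) of each gene, in the role groups of the 42 genes (red) and in the other lists (grey); filled points had an adjusted p under 0.05, bars are list medians and the dashed line is the median of all genes, 0.09. The medians of the PERK and ATF4 genes, the further ATF4 targets and the reported IRE1 decay substrates lie right of it. Those of all other lists lie left of it, from -1.49 for disulfide isomerases and oxidases to 0.03 for further degradation and extraction genes.

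Markers of the sorted cells and of some other cells differed between these groups. For comparison, 9.10% of all genes were higher and 14.5% lower in CCR7+Il12b- cells, and 14.1% and 17.9% in CCR7+Il12b+ cells. All 13 XCR1+ dendritic cell markers were above the background mark in every group, but 10 of 13 were lower in CCR7+Il12b+ cells, and their summed linear level went from 20641 to 22330 in immature to 13086 to 16319 in CCR7+Il12b- and 8477 to 9800 in CCR7+Il12b+ arrays. Xcr1 itself fell by 1.36 and by 3.02, whereas Batf3, a transcription factor these cells need, rose by 0.54 and by 0.89, and Flt3 and Zbtb46 were called in no comparison. Of 9 plasmacytoid dendritic cell markers, which also mark a cell rich in secretory machinery, 5 were lower in each CCR7+ group, and the numbers higher were 2 (CCR7+Il12b-) and 1 (CCR7+Il12b+). Siglech fell by 1.24 and by 1.42, Spib rose by 1.69 and by 1.41, and Pacsin1 rose by 0.43 in CCR7+Il12b- cells. The summed level was 2402 to 2636, then 1845 to 1972, then 1308 to 1405. The part of these markers in the lower folding genes was not tested. Of 9 plasma cell markers, 4 were higher and 0 lower in CCR7+Il12b- cells, and 3 were higher and 0 lower in CCR7+Il12b+ cells. Their summed levels were 505 to 558, 855 to 943 and 908 to 1010. Prdm1 rose by 1.15 and by 0.68 from an immature mean of 4.89, below the background mark. Irf4 rose by 1.02 and by 0.88, and Ell2 by 0.99 and by 1.26. Sdc1, Tnfrsf17, Mzb1, Ighm and Jchain were called in no comparison, with Tnfrsf17 at -0.03 and 0.14 and Mzb1 at 0.19 and 0.07. In immature cells 4 of the 9 group means lay below the mark. Jchain was below the mark in every array.

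The B cell markers summed to 519 to 613, 720 to 945 and 539 to 542, and 3 of 10, among them Cd79a, were below the background mark in every array. Of the 10, 3 were higher and 1 lower in CCR7+Il12b- cells, and 1 higher and 3 lower in CCR7+Il12b+ cells. Ms4a1, above the mark throughout, rose by 1.51 and by 0.91, and Fcrla fell by 1.16 and by 1.67. Cd79b was 0.57 higher in CCR7+Il12b- and 0.58 lower in CCR7+Il12b+ cells. For CD11b+ dendritic cells the sums were 1023 to 1630, 1706 to 2100 and 942 to 975. Of these 10 genes, 3 were higher and 2 lower in CCR7+Il12b- cells, and 1 higher and 3 lower in CCR7+Il12b+ cells. Between the CCR7+ groups 5 were lower and 0 higher. Sirpa rose by 1.08 in CCR7+Il12b- cells, and Cd209a fell by 1.02 and by 2.03. Monocyte and macrophage markers summed to 5581 to 6288, 5139 to 6937 and 5068 to 6545. That last list held large changes both ways, with 3 of 12 genes higher and 3 lower in CCR7+Il12b- cells and 3 higher and 4 lower in CCR7+Il12b+ cells. Spic rose by 3.15 and by 3.07 and Vcam1 by 2.57 and by 3.17, while Lyz2 fell by 1.45 and fell by 3.11 and Cd68 fell by 1.38 and fell by 2.67. T cell markers summed to 328 to 351, 394 to 411 and 299 to 351, with Cd3g and 3 others below the mark in every array. Of these 10, 4 were higher and 0 lower in CCR7+Il12b- cells, and 0 higher and 2 lower in CCR7+Il12b+ cells. NK cell markers summed to 757 to 839, 474 to 651 and 277 to 292, with Ncr1 and 4 others below the mark in every array. Of these 10, 1 was higher and 2 lower in CCR7+Il12b- cells. In CCR7+Il12b+ cells 0 were higher and 2 lower, with changes down to -3.41. The part of these lists in the results above was not tested.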

How the data were processed

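RNA of the 8 sorted samples was amplified and hybridised to mouse arrays. The labels give more than 1 RNA input amount without saying which sample had which. A difference in input between groups can therefore not be told apart from the group differences. The deposited values are log2 expression; for their making the submitters' processing notes name RMA and oligo, and no version. Probe sets with 1 gene symbol were kept, with the highest mean over the 8 arrays per gene. Group means of all 8 arrays were fitted with limma 3.58.1 in R 4.3.3, with Benjamini-Hochberg adjustment over 19938 genes; the script was tested on simulated data. Ero1l, Ero1lb and Vimp of the gene list are Ero1a, Ero1b and Selenos in the array annotation. The members and lists were chosen with earlier results of these data known. Array values are given for IRE1 branch, ATF6 and CREB3 genes, Atf4 and Ddit3, and for called members changed by at least 1 (at most 6 a group); other lists name at most 4 called genes with the largest changes per comparison. Alternatives covered scaling, filters, blocks, weights, prior and each array left out. Precision is limited by the number of arrays.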

Additional observations from a re-analysis of the deposited data

How the results depend on the processing

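Under 19 alternatives, 18 of the 23 calls that the 42 genes gave in CCR7+Il12b- cells, 28 of 32 in CCR7+Il12b+ cells (each against immature) and 4 of 9 in the direct comparison were kept in every one; those 4 were Atf6, Creld2, Pdia4 and Pdia6. No call reversed its direction, and 2, 3 and 7 genes that were not called changed sign under some alternative. The count of higher genes in CCR7+Il12b- cells, 2, was 6 after quantile normalization and 6 after cyclic loess, 5 with only the 2 groups fitted, 5 with array weights, and 2 to 5 with an array left out (5 without either CCR7+Il12b+ array). In the direct comparison the count of higher genes, 1, was 2 after quantile normalization, 2 after cyclic loess, 2 among genes above the median of all values, 0 with only the 2 groups fitted and 0 to 1 with an array left out (0 without CCR7+Il12b- array 1 or 2 or either CCR7+Il12b+ array). The count of lower genes there, 8, ran from 4 (without CCR7+Il12b+ array 1) over 5 (without CCR7+Il12b- array 1 or 2) to 13 (without CCR7+Il12b- array 3); where an arm was left with 1 array, it is assumed to vary like the other groups. The cause of these shifts was not tested. Median centring moved the median change of all genes in CCR7+Il12b+ cells from 0.09 to -0.05 and the all-gene split from 14.1% higher and 17.9% lower to 9.02% and 20.9%.

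The labels do not say whether a shared replicate number marks paired arrays. Deviations of same-numbered arrays from their group means correlated from -0.169 to 0.216 over genes, and those of differently numbered arrays from -0.216 to 0.187. Deviations within so small a group cancel by construction, so these correlations cannot decide on pairing. With the number as a replicate block, 2 genes were higher and 19 lower in CCR7+Il12b- cells, 6 and 24 in the CCR7+Il12b+ group, and 1 and 6 in the direct comparison. Signal limits Creb3l2, whose values lie near background.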
